A study of Mus musculus with 6 samples.

Results

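The genes described here encode enzymes of the tricarboxylic acid cycle, and they were followed in RAW 264.7 cells, a mouse macrophage line, after exposure to bacterial lipopolysaccharide (LPS). They were chosen by name: Cs, Idh1, Idh2, Idh3a, Ogdh, Suclg1, Fh1, Mdh1 and Mdh2. Features carrying the symbols of 7 of these 9 genes were in the annotation used here, and all 7 could be tested among 10088 genes in all. Idh2 and Ogdh were not analysed here. Untreated cells were kept in culture for 8 h, and treated cells received LPS at 100 ng/ml together with LPS-binding protein at 100 pM for the same time. RNA of both kinds was hybridised together on 6 two-colour arrays, in 3 numbered sets. Each set number was given to 1 Cy5 array, on which the treated cells' RNA carried Cy5, and 1 Cy3 array, on which it carried Cy3. The labels do not say what arrays of 1 number share. Their values were averaged so that each mean holds both dyes, and with the 6 arrays taken singly, with a dye term, 3 members also fell. The cells come from a single transformed line, and nothing in the labels says that the sets are different cultures, so the p-values rest on a spread between sets that may be technical. Fewer cells with a transcript and less of it per cell cannot be told apart. The direction of every ratio is a likely one, since the deposited table leaves unsaid which dye was divided by which. Cy5 over Cy3 was assumed from the dye labels. Read so, 6 of 6 genes known to be induced by LPS (Tnf, Il1b, Il6, Nos2, Cxcl10 and Ifit2) were higher on all 6 arrays. Under the opposite reading these, and every direction, rank and order given here, would be reversed.

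The cycle oxidises acetyl groups to carbon dioxide in mitochondria and hands the electrons to the respiratory chain, and its intermediates also feed the synthesis of lipids, amino acids and haem. In macrophages activated by LPS the cycle is known to be interrupted after citrate, at the isocitrate dehydrogenase step, and after succinate, at succinate dehydrogenase. Citrate then leaves for lipid synthesis and for itaconate, made by the enzyme encoded by Acod1, and succinate accumulates. The comparison asked how far the transcripts of the enzymes at and between these points differed between treated and untreated cells.

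Of the 7 enzymes measured, 3 fell and 0 rose in limma, and at an unadjusted p under 0.05 the counts were likewise 3 and 0. Fh1, which encodes fumarate hydratase, had the lowest ratio at 80.8% of the untreated level (1.24-fold higher under the opposite reading), Idh3a, a subunit of the NAD-dependent isocitrate dehydrogenase, stood at 86.3%, and Suclg1, a subunit of succinyl-CoA ligase, at 88.8%. Idh1, the cytosolic NADP-dependent isocitrate dehydrogenase, stood at 100% of the untreated level with a 95% interval of 92.0% to 109%. The citrate synthase gene Cs and the malate dehydrogenase genes Mdh1 and Mdh2 had ratios of 93.1% to 94.8%, and none of them passed the test. A gene was counted as changed where the adjusted p (Benjamini-Hochberg over all genes) was under 0.05 in limma's moderated test of the 3 set means of the log2 ratio. Among all 10088 genes, 16.8% were lower, 17.3% were higher and 34.2% were changed in either direction by this rule. At an unadjusted p under 0.05 in limma the shares of all genes were not computed, and can be no smaller. The unadjusted counts given here and below, also for the dye term, therefore stand without a background share.

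Across all features the 6 arrays agreed moderately once turned to treated over untreated, with Pearson's r over features of 0.70 to 0.90 within a dye orientation and 0.43 to 0.80 between orientations. Features are not independent replicates in these correlations. Of the 6 genes listed as a check of the treatment, 6 rose, with log2 ratios from 1.17 for Nos2 to 4.65 for Ifit2. The macrophage identity of the cells could not be checked by level, because a ratio within an array holds no level. Of 9 macrophage marker genes 6 rose and 1 fell, while 0 of 7 fibroblast and 0 of 6 lymphocyte marker genes passed the test in limma (1 of each list at an unadjusted p under 0.05). By the same rule 16.8% of all genes fell and 17.3% rose. The part of cell composition in the results on the cycle was not tested. With 6 arrays in 3 sets, precision is limited by their number.

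Upstream sequences are given next for Fh1 and Suclg1, as members that fell, for Idh1, as the member whose mean lay nearest 0, and for the succinate dehydrogenase gene Sdhb, which is described further on. Each is the 250 bases before a RefSeq start site on GRCm38.p6, read 5′ to 3′ on the strand of the gene, and capitals mark matches to the motifs searched. Idh3a is named only. Windows were held for 8 of the 9 members.
Fh1, chr1:175625636-175625885, minus strand: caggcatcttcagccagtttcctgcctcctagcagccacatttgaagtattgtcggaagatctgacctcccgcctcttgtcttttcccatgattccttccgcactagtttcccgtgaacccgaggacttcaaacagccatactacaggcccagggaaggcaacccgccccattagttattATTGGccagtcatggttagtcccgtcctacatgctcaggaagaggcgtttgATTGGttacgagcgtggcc
Suclg1, chr6:73248255-73248504, plus strand: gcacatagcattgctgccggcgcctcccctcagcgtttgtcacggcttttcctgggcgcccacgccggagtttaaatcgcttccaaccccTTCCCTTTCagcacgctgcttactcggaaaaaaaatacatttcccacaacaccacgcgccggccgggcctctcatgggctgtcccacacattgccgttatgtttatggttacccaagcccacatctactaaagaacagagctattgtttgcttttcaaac
Idh1, chr1:65186480-65186729, minus strand: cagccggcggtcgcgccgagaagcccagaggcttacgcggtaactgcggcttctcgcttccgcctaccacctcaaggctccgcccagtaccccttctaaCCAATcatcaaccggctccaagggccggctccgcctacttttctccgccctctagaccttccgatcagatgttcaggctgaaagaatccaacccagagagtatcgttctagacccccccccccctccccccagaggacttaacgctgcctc
Sdhb, chr4:140961021-140961270, plus strand: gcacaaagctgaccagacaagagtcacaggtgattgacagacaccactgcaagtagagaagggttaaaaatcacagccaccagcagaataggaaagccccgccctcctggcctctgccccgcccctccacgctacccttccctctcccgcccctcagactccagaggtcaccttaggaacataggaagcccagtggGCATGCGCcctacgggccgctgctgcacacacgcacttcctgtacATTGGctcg

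The motifs were searched on both strands, and no match overlapped another in the windows shown. They were the CCAAT box (CCAAT, found in 33.8% of 32536 distinct windows of the same length), the core of the site of NRF1, a regulator of nuclear genes for mitochondria (GCGCATGC, 2.27%), an ETS core (CCGGAAG, 6.95%), a core of the oestrogen-related receptor site (AAGGTCA, 4.09%), the E-box (CACGTG, 6.04%) and a core of the interferon-stimulated response element (GAAANNGAA, 7.15%). The Fh1 window held 2 CCAAT boxes on the opposite strand, at 70 to 66 and 19 to 15 bases before the start. The Idh1 window shown held 1 CCAAT box, and a second Idh1 start had none of these motifs. The Suclg1 window held the interferon-type core once, 160 to 152 bases before the start. The Sdhb window held 1 NRF1 core, 54 to 47 bases before the start, and 1 CCAAT box. These matches are descriptions of letters, not measured binding.

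Citrate synthase, encoded by Cs, joins acetyl-CoA to oxaloacetate and so opens the cycle. Its log2 ratios were -0.10, -0.03 and -0.15 on the Cy5 arrays of sets 1 to 3, and -0.0052, -0.03 and -0.14 on the Cy3 arrays. All 6 values were below 0, and the largest fall was in set 3 in both orientations. The mean over sets was -0.08 ± 0.06 (SD, n = 3 sets; limma's adjusted p = 0.272), with a 95% interval of 87.3% to 103% of the untreated level.

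**Figure D1:**
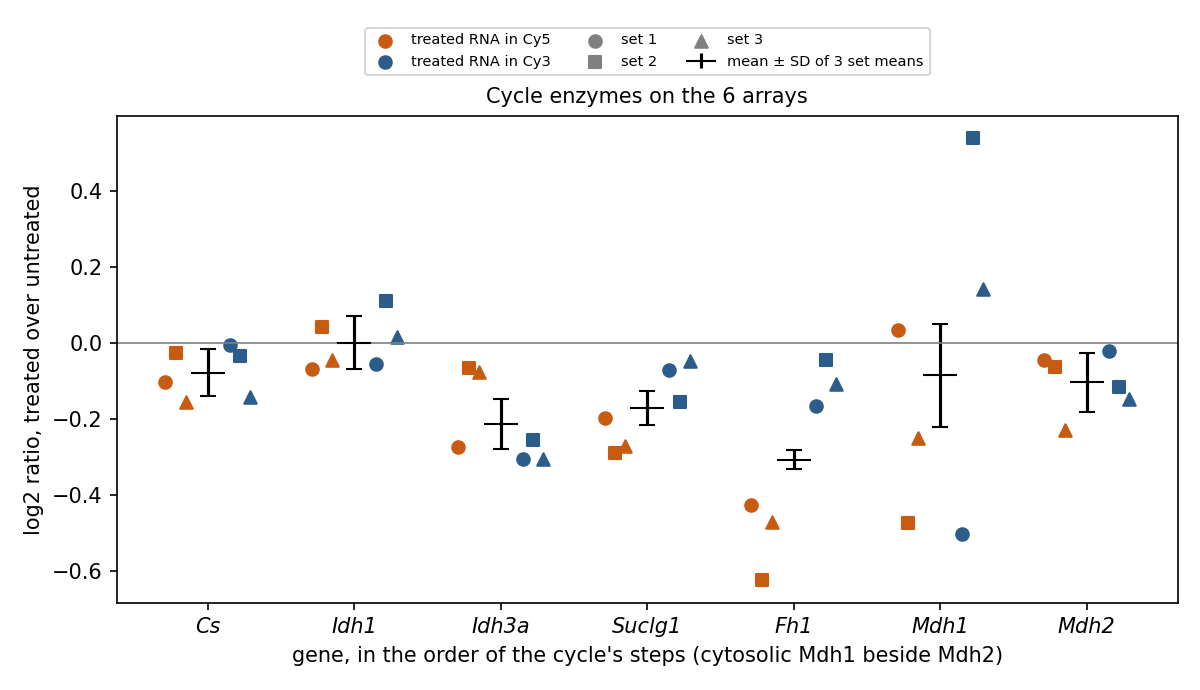
The log2 ratio of treated over untreated RNA (vertical axis) is plotted for each of the 7 measured cycle enzymes on each of the 6 arrays, with Cy5 arrays in orange, Cy3 arrays in blue, and a symbol for each of the 3 sets. Black bars are the mean ± SD of the 3 set means. Fh1 has the lowest mean at -0.31 and its orange points lie below its blue ones, while the Mdh1 points run from -0.50 to 0.54.

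The isocitrate dehydrogenases carry the step at which the first interruption is placed. Idh1 makes NADPH in the cytosol and peroxisomes from isocitrate. Its log2 ratios were -0.07, 0.04 and -0.04 on the Cy5 arrays and -0.05, 0.11 and 0.02 on the Cy3 arrays, in the order of sets. There were 3 values on each side of 0, set 1 was below 0 and set 2 above 0 in both orientations, and the orientations overlapped. The mean was 0.00066 ± 0.07 (SD, n = 3 sets; limma's adjusted p = 0.994). The 95% interval of -0.12 to 0.12 on the log2 scale leaves room for a small fall or rise, and a p above the threshold does not show that the level was equal.

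Idh3a encodes the catalytic alpha subunit of the mitochondrial enzyme that drives the cycle forward. The feature measured on all 6 arrays had log2 ratios of -0.27, -0.06 and -0.08 on the Cy5 arrays and of -0.30, -0.26 and -0.30 on the Cy3 arrays. All were below 0, and the Cy3 arrays lay close to one another while set 1 was the lowest of the Cy5 arrays. The mean was -0.21 ± 0.07 (SD, n = 3 sets; limma's adjusted p = 0.0188). A second Idh3a feature was listed at exactly 0 on 1 array, which was treated as not measured, and its other values were -0.15, -0.07 and -0.31 on the Cy5 arrays and -0.24 and -0.31 on the Cy3 arrays. Its mean over the remaining 2 sets was -0.23 ± 0.11, and the fit over single features gave it a limma adjusted p of 0.064. The features had similar means, and the adjusted p of the second lay above the threshold. Idh3a did not pass without set 3 (-0.22, limma's adjusted p = 0.101) or on the Cy5 arrays alone (-0.16, limma's adjusted p = 0.101). The fit of the Cy5 arrays averaged both features, since both held values on all of them. The first feature alone had a Cy5 mean of -0.14.

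Suclg1 encodes the alpha subunit shared by both succinyl-CoA ligases, which yield succinate and a nucleoside triphosphate. The log2 ratios were -0.20, -0.29 and -0.27 on the Cy5 arrays and -0.07, -0.15 and -0.05 on the Cy3 arrays. Each value was below 0, and the lowest in each orientation was that of set 2. The orientations did not overlap, with the Cy5 arrays lower. The mean was -0.17 ± 0.05 (SD, n = 3 sets; limma's adjusted p = 0.0323). The gene did not pass without set 2 (-0.15, limma's adjusted p = 0.0834), without set 3 (-0.18, limma's adjusted p = 0.165) or on the Cy3 arrays alone (-0.09, limma's adjusted p = 0.316).

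Fh1 encodes fumarate hydratase, which turns fumarate into malate behind the second interruption. The log2 ratios were -0.43, -0.63 and -0.47 on the Cy5 arrays, against -0.17, -0.05 and -0.11 on the Cy3 arrays. All 6 arrays were below 0, and the orientations did not overlap. Set 2 gave the lowest value on the Cy5 arrays and the highest on the Cy3 arrays, so that the set means of -0.30, -0.34 and -0.29 lay close together. Their mean was -0.31 ± 0.02 (SD, n = 3 sets; limma's adjusted p = 0.0031), a 1.24-fold fall. The small SD describes set means in which the dyes were balanced, not single arrays, whose mean was -0.51 ± 0.10 on the Cy5 arrays and -0.11 ± 0.06 on the Cy3 arrays (SD, n = 3 arrays each). On the Cy3 arrays alone Fh1 did not pass (-0.11, limma's adjusted p = 0.258).

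The malate dehydrogenases close the cycle in mitochondria, by Mdh2, and carry reducing equivalents in the cytosol, by Mdh1. Mdh2 had log2 ratios of -0.05, -0.06 and -0.23 on the Cy5 arrays and of -0.02, -0.12 and -0.15 on the Cy3 arrays. It was lower on 6 of 6 arrays, most in set 3 in both orientations, and its mean was -0.10 ± 0.08 (SD, n = 3 sets; limma's adjusted p = 0.176). Mdh1 had the widest spread over arrays among the 7 members, with 0.03, -0.48 and -0.25 on the Cy5 arrays and -0.50, 0.54 and 0.14 on the Cy3 arrays. It was lower on 3 arrays and higher on 3, and the sets that were high in one orientation were low in the other. Its mean was -0.08 ± 0.14 (SD, n = 3 sets; limma's adjusted p = 0.356), with a 95% interval of 84.7% to 105% of the untreated level.

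Of the 7 members, 5 were below 0 on all 6 arrays and 0 were above 0 on all 6, against 17.4% and 17.8% of the 9229 genes with 6 values. The 5 were Cs, Idh3a, Suclg1, Fh1 and Mdh2. The set of 7 had a median log2 ratio of -0.10, from -0.31 to 0.00066, and 6 of 7 means were below 0, beside a median of -0.01 and 51.9% below 0 over all genes tested. With 7 genes no statement about the set as such is drawn from these counts. Over all genes that fell, the median size was 0.32 on the log2 scale, with quartiles of 0.23 and 0.47. Fh1 lay between these quartiles, and Idh3a and Suclg1 lay below the lower one.

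In order from the lowest ratio the members were Fh1, Idh3a, Suclg1, Mdh2, Mdh1, Cs and Idh1. Neighbours in this order were set against each other within sets, where the smallest p that an exact two-sided sign permutation of 3 sets can give is 0.25. In 4 of the 6 neighbouring pairs the SD over sets was larger than the difference, namely Idh3a and Suclg1, Suclg1 and Mdh2, Mdh2 and Mdh1, and Mdh1 and Cs. Idh3a exceeded Fh1 by 0.09 ± 0.08 and Idh1 exceeded Cs by 0.08 ± 0.08 on the log2 scale (SD, n = 3 sets). Of all 21 pairs of members, 13 had the order of the means in 3 of 3 sets and 3 had it on 6 of 6 arrays, a description only, since the order comes from the same values. The 3 pairs set Idh1 above Fh1 by 0.31 ± 0.09, above Idh3a by 0.21 ± 0.03 and above Suclg1 by 0.17 ± 0.12 (SD, n = 3 sets).

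**Figure D2:**
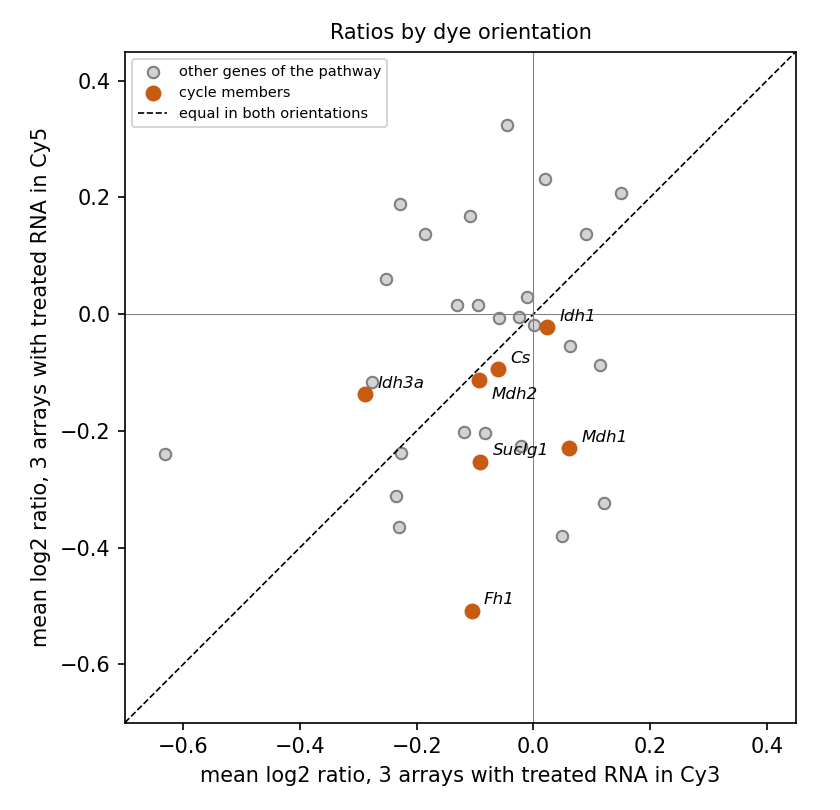
The mean log2 ratio over the 3 Cy5 arrays (vertical axis) is plotted against that over the 3 Cy3 arrays (horizontal axis), for the 7 cycle members in orange and other genes of the pathway in grey. The dashed line marks equal means. Cs, Idh1 and Mdh2 lie near the line, and Fh1 lies farthest below it among the members, at -0.51 against -0.11.

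Because the size of several ratios followed the dye, a dye term was estimated for every gene from the 6 arrays. Its adjusted p was under 0.05 for 3.55% of 10180 genes and for 0 of the 7 members in limma (1 at an unadjusted p under 0.05). Fh1 came nearest with a term of -0.20 (limma's adjusted p = 0.0514). The term was -0.08 for Suclg1, -0.15 for Mdh1 and 0.08 for Idh3a, and at most 0.02 in size for Cs, Idh1 and Mdh2. The orientations did not overlap for 2 of 7 members, Fh1 and Suclg1, beside 37.1% of the 9229 genes with 6 values. Balanced means, as used for every test above, hold both orientations equally.

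The remaining subunits of the cycle were taken from a list of 12 genes, of which 7 could be tested. In limma 2 fell and 0 rose, beside 16.8% and 17.3% of all genes. The counts at an unadjusted p under 0.05 were the same. Sdhb, the iron-sulphur subunit of succinate dehydrogenase at the second interruption, had log2 ratios of -0.23, -0.19 and -0.29 on the Cy5 arrays and -0.30, -0.20 and -0.19 on the Cy3 arrays. These values overlapped between orientations and all lay below 0. The mean was -0.23 ± 0.04 (SD, n = 3 sets; limma's adjusted p = 0.00983), or 85.1% of the untreated level, and with the ratio still at -0.23 limma's adjusted p was 0.0849 without set 3 and 0.0596 on the Cy3 arrays alone. Sdhc, a membrane anchor of the same complex, averaged -0.02 ± 0.02 (limma's adjusted p = 0.718), with means of 0.14 and -0.19 in the Cy5 and Cy3 orientations. Sdha and Sdhd were not analysed here.

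Dlst, the transferase subunit of the 2-oxoglutarate dehydrogenase complex, fell by 0.16 ± 0.02 on the log2 scale (limma's adjusted p = 0.0349). It did not pass when any 1 of the 3 sets was left out, at -0.17 to -0.15 with limma's adjusted p from 0.0606 to 0.197, or on the Cy3 arrays alone (-0.12, limma's adjusted p = 0.192). The other ligase subunits did not pass, with -0.10 ± 0.09 for Sucla2 and -0.03 ± 0.06 for Suclg2, the latter over 2 sets. Dld, the dehydrogenase subunit that the pyruvate and 2-oxoglutarate complexes share, averaged 0.10 ± 0.07 over 2 sets. Aco1, the cytosolic aconitase that also acts as an iron sensor, averaged -0.10 ± 0.01 (limma's adjusted p = 0.147), with means of 0.06 and -0.25 in the Cy5 and Cy3 orientations. Its dye term passed (limma's adjusted p = 0.0491), and its ratio passed on the Cy3 arrays alone (limma's adjusted p = 0.0392) and with the 6 arrays taken singly (limma's adjusted p = 0.0447).

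**Figure D3:**
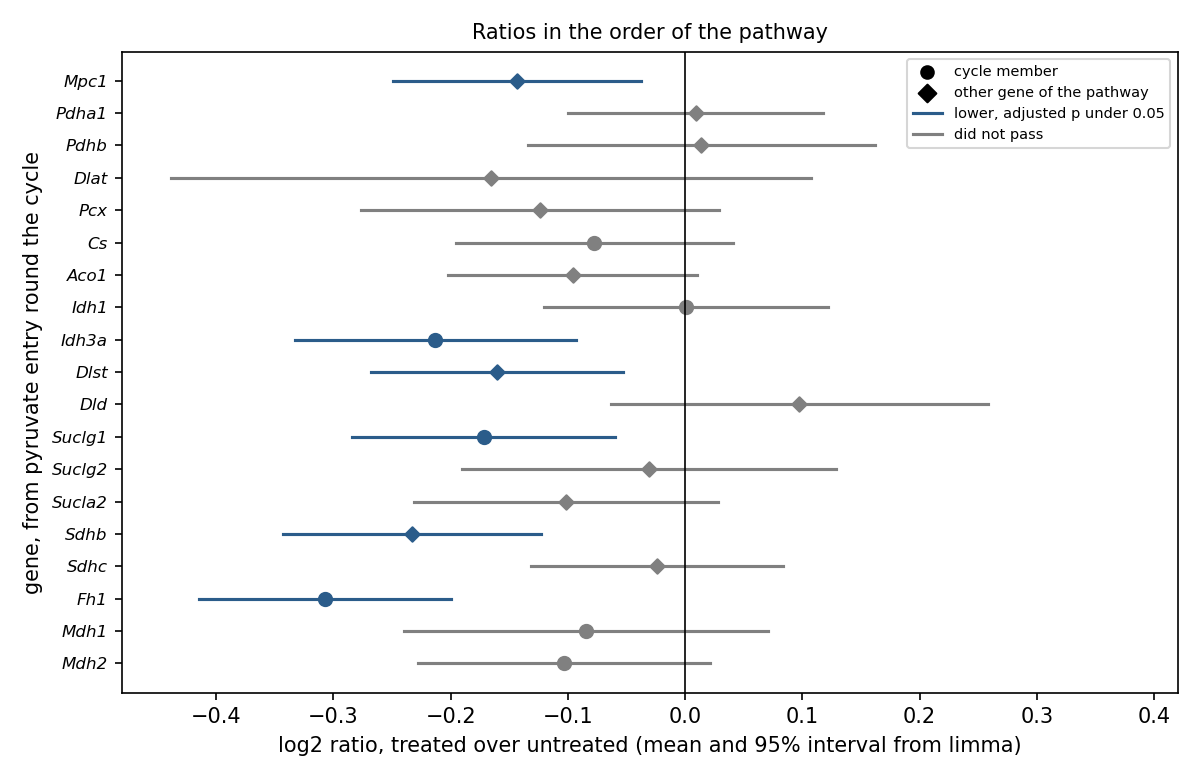
Mean log2 ratios of treated over untreated RNA with 95% intervals from limma (horizontal axis) are drawn for 19 genes in pathway order from pyruvate entry to malate (vertical axis). Circles are cycle members, diamonds other genes, and blue marks an adjusted p under 0.05. The 6 blue genes are Mpc1, Idh3a, Dlst, Suclg1, Sdhb and Fh1, all to the left of 0.

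Pyruvate reaches the cycle through the mitochondrial carrier and the pyruvate dehydrogenase complex. Of 7 genes tested from this list, 1 fell and 0 rose in limma, beside 16.8% and 17.3% of all genes. The counts at an unadjusted p under 0.05 were the same. Mpc1, a subunit of the carrier, averaged -0.14 ± 0.0034 (limma's adjusted p = 0.0482), a value that lay just under the threshold and was lost in 8 alternatives, among them centring each array on its median (limma's adjusted p = 0.0513) and each omission of 1 set. The dehydrogenase subunits Pdha1 and Pdhb stood at 0.01 ± 0.03 and 0.01 ± 0.12. The kinase genes Pdk2 and Pdk4, whose products switch the complex off, averaged -0.03 ± 0.08 and -0.02 ± 0.26.

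Glutamine and glutamate enter the cycle as 2-oxoglutarate. From that list 2 of 6 genes tested fell and 0 rose, beside 16.8% and 17.3% of all genes. At an unadjusted p under 0.05 in limma, 1 rose. Glul, the glutamine synthetase gene, fell by 0.44 ± 0.04 on the log2 scale (limma's adjusted p = 0.000901, and 0.0722 on the Cy5 arrays alone, at -0.24), and Glud1, which oxidises glutamate in mitochondria, fell by 0.30 ± 0.02 (limma's adjusted p = 0.00347, and 0.0542 on the Cy3 arrays alone, at -0.23). In the list of citrate export and malic enzymes, 1 of 6 genes fell and 0 rose (2 and 1 at an unadjusted p under 0.05 in limma). The share that fell in this list is near the 16.8% of all genes. Fasn, the fatty acid synthase gene, fell by 0.27 ± 0.08 (limma's adjusted p = 0.00867, and 0.0765 on the Cy3 arrays alone, at -0.24). The citrate carrier gene Slc25a1 and the citrate lyase gene Acly, through which citrate leaves for lipid synthesis, averaged -0.01 ± 0.03 and 0.0040 ± 0.06, and neither passed.

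Carriers, shunts and arginases gave 2 falls and 1 rise among 6 genes tested in limma, beside 16.8% and 17.3% of all genes. At an unadjusted p under 0.05 in limma the counts were 3 and 2. Slc25a10, the dicarboxylate carrier that exchanges malate and succinate for phosphate across the inner mitochondrial membrane, had the lowest ratio of all pathway genes listed here. Its log2 ratios were -0.83, -0.80 and -0.63 on the Cy5 arrays and -0.94, -0.57 and -0.68 on the Cy3 arrays. The orientations overlapped, and no value came near 0. The mean of -0.74 ± 0.12 (SD, n = 3 sets; limma's adjusted p = 0.000353) corresponds to 59.8% of the untreated level (1.67-fold higher under the opposite reading), and the call held under all 13 alternatives. The oxoglutarate carrier gene Slc25a11 fell by 0.15 ± 0.03 (limma's adjusted p = 0.0485), a call lost in 9 alternatives. Arg2, the mitochondrial arginase gene, rose by 0.73 ± 0.19 (limma's adjusted p = 0.00103, and 0.0609 on the Cy3 arrays alone, also at 0.73). Ass1, which draws aspartate into argininosuccinate, averaged 0.33 ± 0.30 and did not pass (limma's adjusted p = 0.0683).

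**Figure D4:**
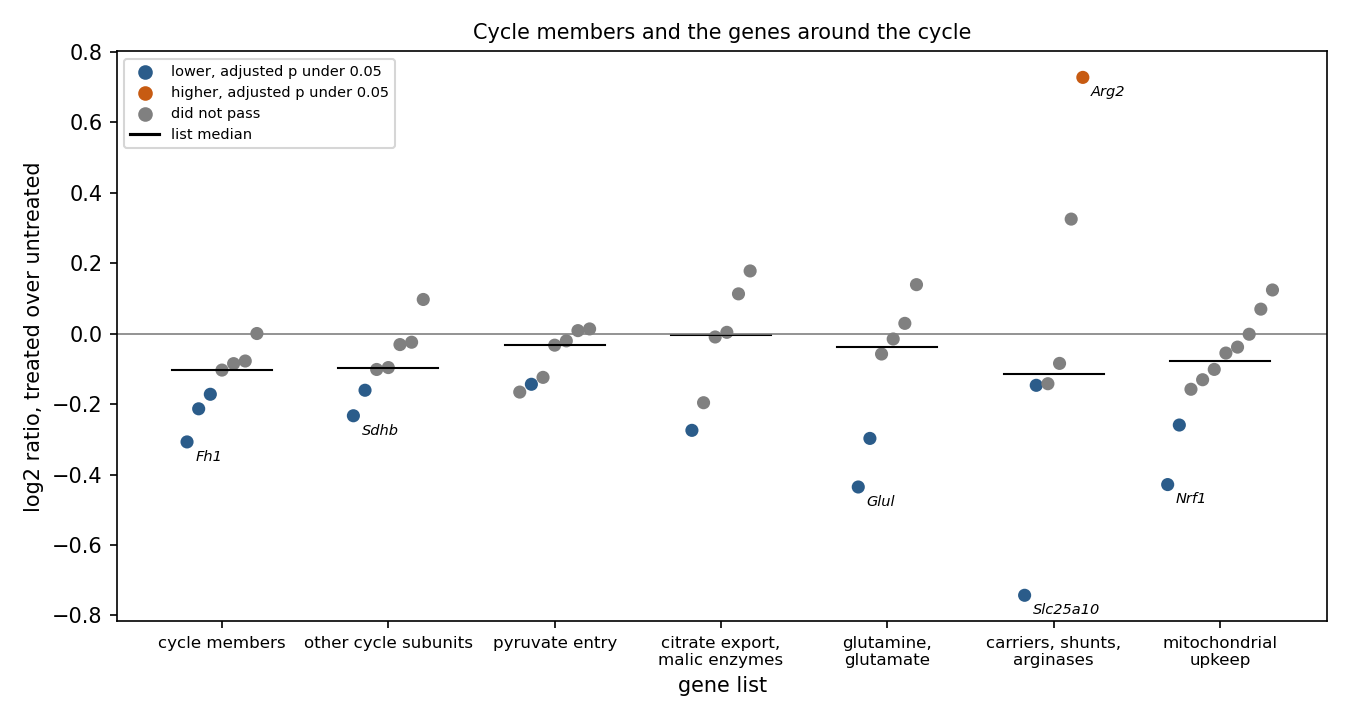
Mean log2 ratios of treated over untreated RNA (vertical axis) are shown for each tested gene of the cycle members and of 6 gene lists, the other cycle subunits, pyruvate entry, citrate export, glutamine, carriers and mitochondrial upkeep (horizontal axis), with blue for falls, orange for rises and grey for genes that did not pass. Black lines are list medians. The member median is -0.10, and among the genes drawn Slc25a10 at -0.74 is the lowest and Arg2 at 0.73 the highest.

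Of 3 genes tested from a list tied to the interruptions, 2 rose, beside 17.3% of all genes. Acod1, whose product decarboxylates the cycle intermediate cis-aconitate to itaconate, was listed at exactly 0 on 2 arrays, treated as not measured. Its other log2 ratios were 6.63 and 5.99 on the Cy5 arrays and 4.38 and 4.98 on the Cy3 arrays, each far above any value of a cycle member, and with 1 complete set it was not tested. The inducible nitric oxide synthase gene Nos2 rose by 1.17 ± 0.16 (limma's adjusted p = 0.000104) and Hif1a, the oxygen-sensitive transcription factor gene, by 0.36 ± 0.20 (limma's adjusted p = 0.0185, and over 0.05 on either orientation alone, at 0.0583 for 0.29 and 0.0558 for 0.43). Sdhaf4, an assembly factor of succinate dehydrogenase, averaged -0.10 ± 0.07 and did not pass.

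The genes whose 6 array ratios lay nearest to those of each fallen member were found by the root mean square difference. The search ran over the 6 arrays of 9229 genes, leaving out provisional symbols such as those holding Rik. For Fh1 they were Pigo and Map1lc3b, at 0.057 and 0.058 on the log2 scale. For Suclg1 they were Cfap298 and Dapk3, at 0.025 and 0.029, and for Idh3a they were Fbxw5 and Tm9sf3, at 0.051 and 0.052. These are likenesses of ratio profiles on 6 arrays only.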

How the data were processed

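The table deposited by the authors held log2 ratios, 1 value for each of 16281 features on each of 6 arrays; the log base was read from its largest value, 6.64, which is log2 of a 100-fold ratio. How the authors corrected background and balanced the dyes before depositing is not stated in the labels. The sign of the Cy3 arrays was turned. As deposited, opposite orientations correlated at -0.80 to -0.43. Values of exactly 0 (8.16% to 13.9% of features per array) were taken as not measured.

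Of the features, 13738 had 1 gene symbol, 52 several and 2491 none; 13694 matched a RefSeq gene identifier of GRCm38.p6, and 0 symbols changed. Both arrays of a set were averaged, a gene was the mean of its features with 3 complete sets (or 2 where none had 3), and limma 3.58.1 (R 4.3.3; functions lmFit and eBayes) compared the set means with 0. The fit was tested on simulated data first. The 13 alternatives kept zeros, used arrays singly with a dye term or a set block, centred, scaled or quantile-normalised the arrays, used 1 dye orientation, took the feature of smallest spread, required 6 values, or left out a set.

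Named genes were the members, Sdha, Sdhb, Sdhc, Sdhd, Aco1 and Acod1, and from each other list up to 3 falls and 3 rises, or the smallest p where none passed; further listed genes are given as values. Members, lists and tests were chosen with earlier results of these data known.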

Additional observations from a re-analysis of the deposited data

How the results depend on the processing

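In the 13 alternatives every call of a member was a fall, and 0 of the 7 members rose with an adjusted p under 0.05 in limma. Idh1 (-0.04 to 0.03) and Mdh1 (-0.23 to 0.06), which passed in none, changed sign among them. Leaving out 1 set gave 2009 to 3395 genes past the threshold against 3449, the lowest without set 3, and 1 to 3 members that fell against 3. On the Cy3 arrays alone, 1 member fell. Fh1 passed in 12 of 13 alternatives (log2 ratio -0.51 to -0.11), Idh3a in 11 (-0.29 to -0.16) and Suclg1 in 10 (-0.25 to -0.09), while Cs, Idh1, Mdh1 and Mdh2 passed in 0. The cause of the lost calls was not tested. Same-numbered arrays of opposite orientation correlated in their deviations at 0.26, 0.21 and 0.0999 as deposited (over 12798 features). On these deposited values, 5 of 6 arrays correlated best with their own number. Turned to treated over untreated, the same correlations were -0.26, -0.21 and -0.0999. These are correlations over all features, and the source of the shared deviations was not tested. The block fit of the turned gene ratios, given next, estimated a correlation of 0.12 between arrays of 1 number. With the set number as a replicate block over 6 arrays, 3640 genes and 3 members that fell passed, as did 3792 and 3 without the block. No channel intensity was used here, so signal over background limits the values by an unknown amount.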

Other observations

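In a list of 10 tested genes for mitochondrial upkeep, 2 fell and 0 rose in limma, beside 16.8% and 17.3% of all genes. At an unadjusted p under 0.05 in limma the counts were 4 and 1, and the list's median log2 ratio was -0.08. Nrf1, the transcription factor gene named above for its motif, had log2 ratios of -0.50, -0.41 and -0.32 on the Cy5 arrays and -0.44, -0.46 and -0.44 on the Cy3 arrays, a mean of -0.43 ± 0.05 (SD, n = 3 sets; limma's adjusted p = 0.00103). All 6 values lay below 0 and the orientations overlapped. Polg, the polymerase of mitochondrial DNA, fell by 0.26 ± 0.03 on the log2 scale (limma's adjusted p = 0.00617). The coactivator gene Ppargc1a averaged 0.07 over 2 sets, and the outer membrane channel genes Vdac1, Vdac2 and Vdac3 averaged -0.16, -0.13 and -0.0014. None of these 4 passed.

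The Mdh1 ratios, taken as deposited and before any sign was turned, were 0.03 and 0.50 in set 1, -0.48 and -0.54 in set 2, and -0.25 and -0.14 in set 3, on the Cy5 and the Cy3 array respectively. In each set the sign did not change when the dyes were exchanged. The part that kept its sign, the mean of both deposited ratios of a set, was 0.27, -0.51 and -0.20. In the other members it was -0.13, -0.29 and -0.18 for Fh1 and lay between -0.11 and 0.11 for the rest. Among the 73 listed genes with this part in 3 sets, 9 others had the signs of Mdh1. They were Pcx (0.21, -0.42 and -0.10), Arg2 (0.43, -0.28 and -0.15), Pdgfra (0.76, -0.36 and -0.15), Timm23, Csf1r, Col1a2, Pdgfrb, Dcn and Cd8a. All were named after their values were seen. The share of all genes with these signs was not computed, so nothing is drawn from this count. The source of this part was not tested.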
